A study of Homo sapiens with 16 samples.

Results

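The genes described here encode some of the enzymes that set the phosphorylation of the α subunit of translation initiation factor eIF2, and some subunits of the factor that responds to it. They are the eIF2α kinases EIF2AK2 (PKR) and EIF2AK3 (PERK), the phosphatase subunit PPP1R15B (CReP), and the eIF2B subunits EIF2B3 (γ) and EIF2B4 (δ). They were chosen by gene symbol as 5 members of this pathway that the study's table of named transcripts holds, and each is represented by a single UCSC transcript (uc010fac.3 for EIF2AK2, uc002stc.4 for EIF2AK3, uc001hav.4 for PPP1R15B, uc001cmt.3 for EIF2B3 and uc002rjz.3 for EIF2B4). These are 5 of the 19044 transcripts that could be joined between the assays, and all 5 passed the filter on low counts that left 10970 tested transcripts. The other eIF2α kinases that the study names, GCN2 and HRI, and the other eIF2B subunits are not covered here.

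eIF2 carries the initiator tRNA to the ribosome in its GTP-bound form, and eIF2B is the exchange factor that reloads it with GTP after each round of initiation. Phosphorylated eIF2 inhibits eIF2B, which lowers initiation on most mRNAs and raises it on a few whose 5′ UTRs hold upstream reading frames, the integrated stress response. PERK is the kinase in the membrane of the endoplasmic reticulum (ER) that senses unfolded proteins, and PKR is the kinase activated by double-stranded RNA. CReP directs protein phosphatase 1 to eIF2α in unstressed cells, and its relative GADD34 (PPP1R15A) does so once stress has induced it. ISRIB is a small molecule that binds eIF2B and blunts the response downstream of the phosphorylation.

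Ribosome-protected mRNA fragments (RPFs, by Ribo-Seq) and mRNA (by mRNA-Seq) were counted in HEK293T, a widely used line derived from human embryonic kidney that carries the SV40 large T antigen. Cells were left untreated, or were exposed for 1 hr to 1 µg/ml tunicamycin (Tm), to Tm and 200 nM ISRIB (Tm + ISRIB), or to 200 nM ISRIB (ISRIB). Tm blocks N-linked glycosylation and so causes ER stress. There were 2 biological replicates (a, b) per treatment, 4 treatments, and the 8 lysates were each divided between both assays, which gives 16 libraries from a single line in culture. All cells received cycloheximide before lysis to arrest ribosomes.

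The libraries hold 3001612 to 11469150 counts on the joined transcripts in Ribo-Seq and 8466193 to 24499266 in mRNA-Seq. In Ribo-Seq, depth differed by treatment. The Tm libraries were the shallowest (4172745 in a, 3001612 in b) and the untreated ones the deepest (7966904 in a, 11469150 in b). Levels are given as CPM, the counts set against the total of each library after scaling by the trimmed mean of M-values (TMM), so that every change is relative to the other mRNAs of the same library and a change in total protein synthesis is not seen. The ISRIB replicates stood apart from each other in mRNA-Seq, with a scatter of 0.273 (SD of the log2 ratio of a to b) against 0.157 to 0.179 in the other treatments. For the 5 genes this log2 ratio lay between -0.16 (PPP1R15B) and 0.14 (EIF2AK3). Of 7 genes listed for embryonic kidney cells, 4 carried a symbol and were detected in every mRNA-Seq library, from NES (3.31 to 4.86 CPM) and the kidney progenitor factor SIX2 (5.52 to 9.09) to PAX3 (11.6 to 14.9) and LMNA (42.5 to 47.4). FN1, listed for fibroblasts, was at 26.3 to 44.3 CPM, and the blood and muscle markers listed carried no symbol in the table used.

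The start sites of these mRNAs are shown first because the integrated stress response acts at the choice between upstream and coding start codons. In the GENCODE v29 annotation on GRCh38, PPP1R15B lies on the minus strand at chr1:204403387-204411791 with 2 exons, and its 5′ UTR of 380 bases holds 2 upstream ATGs. They start 279 and 231 bases before the coding ATG and open frames of 8 and 51 codons that both end before it. EIF2AK3 (chr2:88556741-88627576, minus strand, 17 exons) has a 5′ UTR of 302 bases with 5 upstream ATGs. The last, 26 bases before the coding start, opens a frame of 8 codons. The stop codon of this frame (TGA) overlaps the coding sequence only in the A of the coding ATG. EIF2AK2 (chr2:37099210-37157065, minus strand, 17 exons) has a single upstream ATG in 323 bases, which opens a frame of 5 codons. A second annotated EIF2AK2 transcript of the same coding length has a 5′ UTR of 557 bases, also with 1 upstream ATG. EIF2B3 (chr1:44850522-44986722, minus strand, 12 exons) has none in 127 bases. The EIF2B4 transcript of matching coding length (chr2:27364352-27370486, minus strand, 12 exons) begins at its coding ATG, so that its 5′ UTR could not be read. The upstream starts 2, 3 and 4 of EIF2AK3 open frames of 46, 18 and 33 codons that end before the coding ATG, and are not printed. The other start sites are printed below 5′ to 3′ as DNA from the annotation's transcripts, except that of EIF2B4. The ATG is in capitals, with 12 bases before it and 6 after.

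PPP1R15B, upstream start 1: ggactcctatccATGgtgttg
PPP1R15B, upstream start 2: ttccccgccaggATGgaagtc
PPP1R15B, coding start: aagaaaaaggagATGgagccg
EIF2AK3, upstream start 1: cagcctgggaacATGgagtgg
EIF2AK3, upstream start 5, overlapping the coding sequence: ggctgcgcctccATGcctgcg
EIF2AK3, coding start: ggcgggacgctgATGgagcgc
EIF2AK2, upstream start: ttgtaaattgtaATGacctca
EIF2AK2, coding start: cgggaagaagaaATGgctggt
EIF2B3, coding start: cggtttgtaaaaATGgaattt

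The surroundings favored for initiation are a purine at the third base before the ATG and a G directly after it. The coding starts of PPP1R15B, EIF2AK2 and EIF2B3 have both, as do the upstream start 2 of PPP1R15B and the upstream start 1 of EIF2AK3. No other upstream start of these genes, printed or not, has both. The coding start of EIF2AK3 has the G and no purine. ATG was searched on the sense strand in all frames of the 5′ UTRs of the 1781 of 1893 named and tested transcripts that could be matched to the annotation. At least 1 was found in 50.4% of them, at least 2 in 30.2% and at least 5 in 8.2%. An upstream ATG is a description of the annotated sequence, and its use by ribosomes was not measured by these counts over coding sequences.

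In untreated cells, the 5 genes covered a wide range of ribosome occupancy. Per kilobase counted, RPF levels followed the order EIF2B3 (89.2 ± 1.6 CPM), EIF2AK2 (73.3 ± 7.2), EIF2B4 (34.0 ± 1.7), PPP1R15B (24.8 ± 0.21) and EIF2AK3 (2.67 ± 0.47; SD, n = 2 for each). No neighbors in this order overlapped between replicates. mRNA levels per kilobase counted followed another order, with EIF2B3 (86.0 ± 5.7 CPM) and PPP1R15B (81.8 ± 2.2) overlapping at the top, and EIF2AK2 (51.2 ± 0.71), EIF2B4 (34.3 ± 3.2) and EIF2AK3 (10.1 ± 0.66) apart from each other below them.

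Translational efficiency (TE) is the ratio of RPF to mRNA CPM, in which the length cancels. It was 1.43 for EIF2AK2, 1.04 for EIF2B3 and 0.993 for EIF2B4, and 0.303 for PPP1R15B and 0.261 for EIF2AK3, as geometric means of the untreated lysates. PPP1R15B thus stood at the 6.97th percentile of TE among all tested transcripts and EIF2AK3 at the 4.93rd, while EIF2AK2 stood at the 66.5th, EIF2B3 at the 50.9th and EIF2B4 at the 48.5th. Both genes of low TE have at least 2 upstream ATGs in the annotated 5′ UTR, as do 30.2% of the matched transcripts. EIF2AK2, with the highest TE of the 5, has 1, EIF2B3 has 0, and the 5′ UTR of EIF2B4 could not be read. With 5 genes this is a description, and the part of upstream frames in these efficiencies was not tested.

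**Figure D1:**
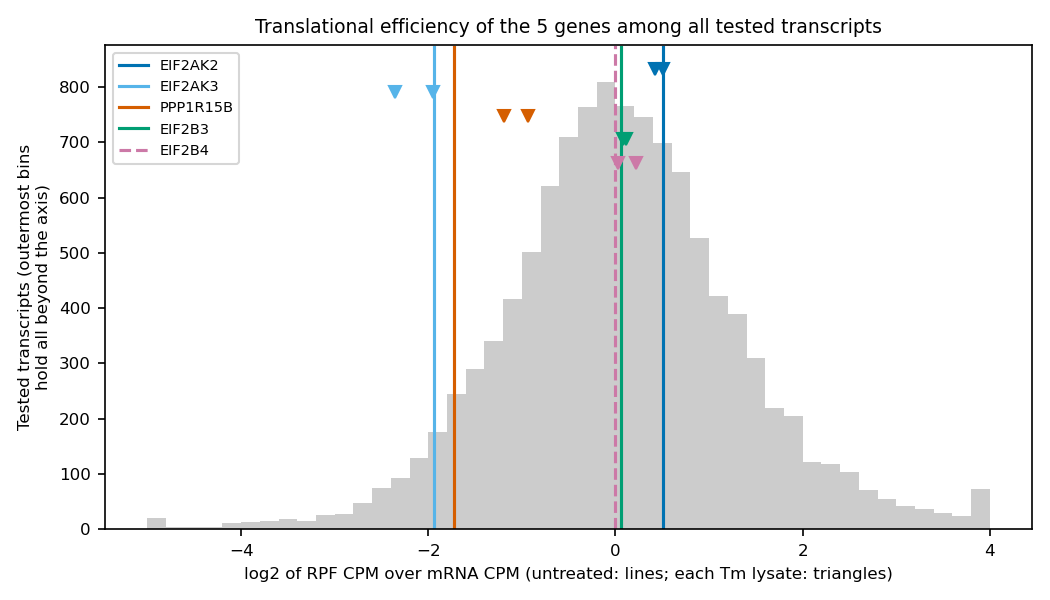
Distribution of log2 TE (RPF CPM over mRNA CPM, mean of 2 untreated lysates) over the 10970 tested transcripts, with the untreated value of each of the 5 genes as a vertical line and its values in the 2 Tm lysates as triangles. PPP1R15B and EIF2AK3 lie in the low tail, and the triangles of PPP1R15B lie to the right of its line, at -0.93 and -1.19 against -1.72 untreated.

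The first comparison asks how ER stress changed ribosome occupancy of these mRNAs. PPP1R15B, the phosphatase subunit of unstressed cells, gained RPFs in Tm with no detectable change in its mRNA. It was the only member of the group past a false discovery rate (FDR) of 0.1 in Tm vs untreated, and EIF2AK2, EIF2AK3, EIF2B3 and EIF2B4 were not. The FDR is the Benjamini-Hochberg adjusted p of edgeR's quasi-likelihood test over all 10970 transcripts, and 13.5% of them passed it in this comparison, in either direction, against 1 of 5 here. The median RPF log2 change was 0.09 for the 5 genes and -0.01 for all tested transcripts.

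PPP1R15B RPFs were at 51.3 CPM (a) and 51.9 CPM (b) in untreated cells and at 90.5 and 76.8 CPM in Tm. Both Tm libraries were above all 6 others. With Tm + ISRIB, the RPF level was 57.3 and 57.1 CPM, and with ISRIB it was 61.7 and 53.0 CPM. The replicate a library of ISRIB was thus above both Tm + ISRIB libraries, and replicate b was below them. The counts behind these levels were 235 to 581 per library.

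The RPF log2 fold change of PPP1R15B in Tm vs untreated was 0.71 ± 0.10 (SE, n = 2 per treatment; 95% interval 0.49 to 0.92), a 1.63-fold rise with an FDR of 2.13e-05 by edgeR. It ranked 195 of 10970 transcripts from the highest RPF change. Tm replicate a was the higher of the pair, and without that lysate the log2 change was 0.57 with an FDR of 0.0101. PPP1R15B was past the FDR in all 14 alternative analyses of this change, which lay between 0.57 and 0.81.

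PPP1R15B mRNA was at 166.9 and 173.5 CPM in untreated cells, at 172.8 and 175.0 in Tm, at 164.5 and 177.3 in Tm + ISRIB and at 176.6 and 197.0 in ISRIB. These ranges overlap between untreated, Tm and Tm + ISRIB. The mRNA log2 change in Tm was 0.03 ± 0.07 (SE; 95% interval -0.13 to 0.19, FDR 0.829 by edgeR). The TE of PPP1R15B therefore rose, by 0.67 ± 0.13 on the log2 scale (SE, FDR 0.00252 by edgeR over all 16 libraries). Its place among all transcripts moved from the 7.15th and 6.93rd percentile in the untreated lysates to the 19.3rd and 14.6th in Tm, so that it remained in the lower part of the distribution. Without Tm replicate a the TE change was 0.53 with an FDR of 0.0964.

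**Figure D2:**
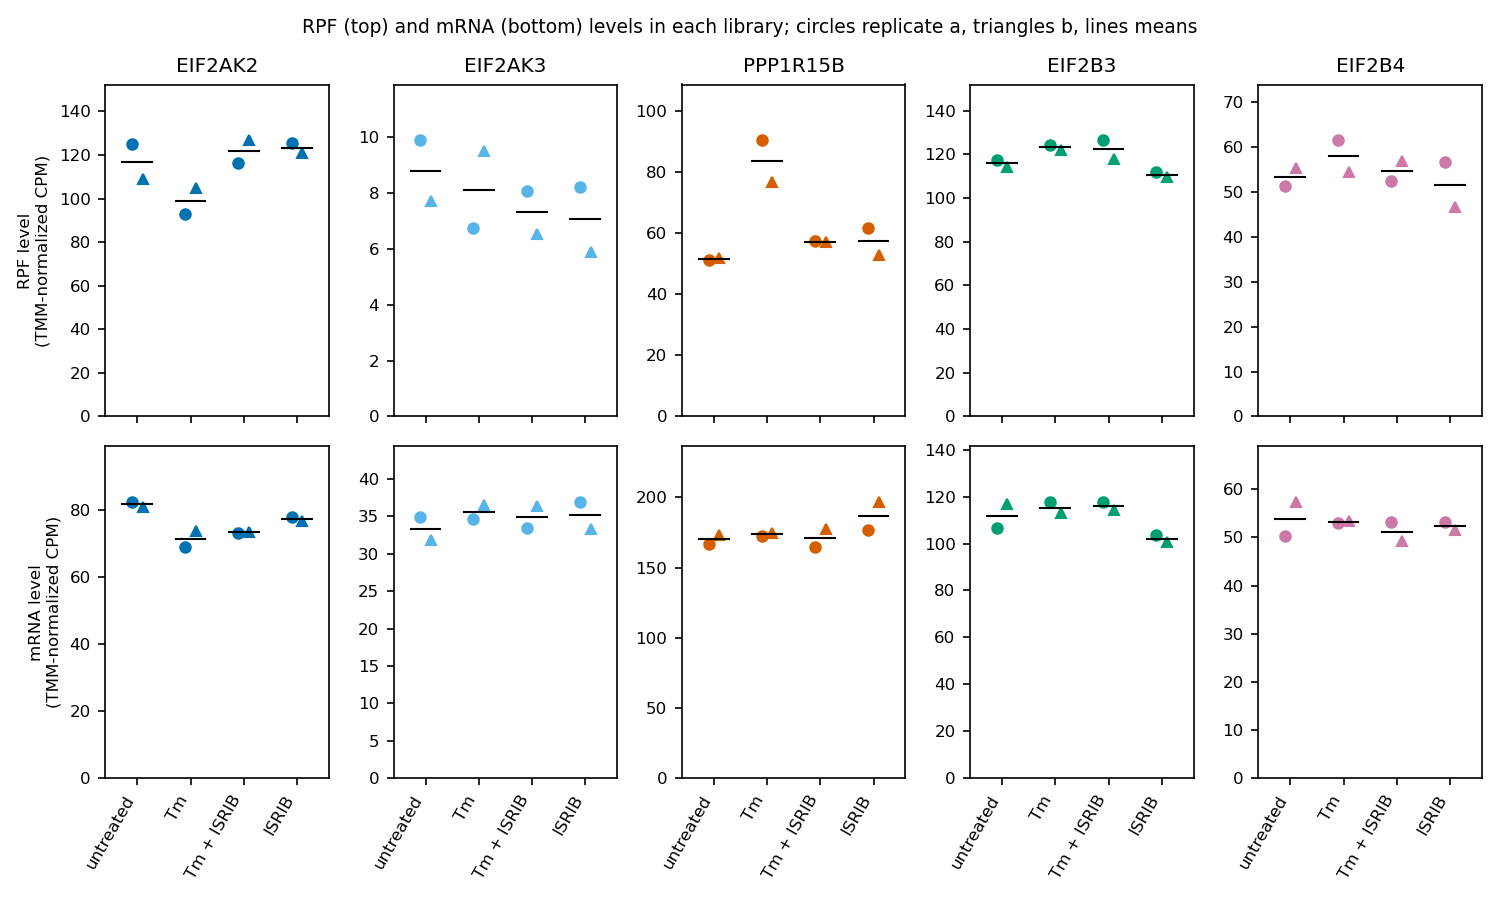
RPF level (top) and mRNA level (bottom) in TMM-normalized CPM for each of the 5 genes in the 16 libraries, with replicate a as circles, replicate b as triangles and the mean of each treatment as a line. The Tm libraries of PPP1R15B, at 90.5 and 76.8 CPM, stand above its 6 other Ribo-Seq libraries, while its mRNA levels do not separate in this way.

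EIF2AK2, the kinase PKR, had lower RPFs in Tm, but short of the threshold. Its RPF level was 125.0 and 108.9 CPM in untreated cells and 92.8 and 104.9 CPM in Tm, from 321 to 1218 counts per library over all treatments. Both Tm libraries were below the other 6, with a narrow gap between Tm replicate b and untreated replicate b. The log2 change in Tm was -0.25 ± 0.10 (SE, FDR 0.106 by edgeR). It passed the FDR when untreated replicate b was left out (-0.34, FDR 0.0297) or when no filter on low counts was used (-0.25, FDR 0.0934). It was smaller without untreated replicate a (-0.15, FDR 0.399) or Tm replicate a (-0.15, FDR 0.55).

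EIF2AK2 mRNA was at 82.6 and 81.0 CPM in untreated cells, 69.2 and 73.9 in Tm, 73.3 and 73.5 in Tm + ISRIB and 78.0 and 76.8 in ISRIB. All 4 libraries with Tm were below the 4 without it. The mRNA log2 change in Tm was -0.19 ± 0.07 (SE, FDR 0.121 by edgeR), and it passed the FDR when either ISRIB lysate was left out (-0.18 with an FDR of 0.0633 without a, -0.19 with 0.0537 without b), with total-count scaling or when the fit held the compared groups only. The TE log2 change was -0.05 ± 0.12 (SE, FDR 0.822), with an interval from -0.31 to 0.20.

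EIF2AK3, the ER stress sensor PERK, had few footprints, with 29 to 86 RPF counts per library. Its RPF level was 9.89 and 7.69 CPM in untreated cells, 6.74 and 9.47 in Tm, 8.07 and 6.53 in Tm + ISRIB and 8.20 and 5.89 in ISRIB, and every treatment overlapped with the others. The log2 change in Tm was -0.13 ± 0.25 (SE, FDR 0.804 by edgeR), and its interval from -0.65 to 0.39 is too wide to tell a change from none at this depth. Its sign turned when untreated replicate a (0.04) or Tm replicate a (0.13) was left out. Its mRNA was measured more closely, at 31.8 to 37.0 CPM over the 8 libraries, and changed by 0.09 ± 0.10 (SE, FDR 0.585) on the log2 scale in Tm. The annotation places an antisense gene over 781 of its 3348 coding bases, and another over 103 of the 1629 of EIF2B4. The mRNA-Seq kit keeps the strand, and the strand setting of the counting is not given in the sources used here.

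The eIF2B subunits EIF2B3 and EIF2B4 did not pass the FDR in RPFs, mRNA or TE in any comparison. EIF2B3, of the catalytic part of eIF2B, had RPF levels of 117.4 and 114.4 CPM in untreated cells and of 124.2 and 122.2 in Tm, with 126.7 and 117.9 in Tm + ISRIB and 111.8 and 109.6 in ISRIB. Its RPF log2 change in Tm was 0.09 ± 0.09 (SE; 95% interval -0.08 to 0.26, FDR 0.567 by edgeR). EIF2B4, of the regulatory part that senses phosphorylated eIF2, had 51.4 and 55.3 CPM in untreated cells and 61.6 and 54.6 in Tm, with 52.4 and 56.9 in Tm + ISRIB and 56.7 and 46.6 in ISRIB. Its RPF log2 change in Tm was 0.13 ± 0.11 (SE; 95% interval -0.10 to 0.36, FDR 0.535). The intervals leave room for RPF rises of up to 0.26 and 0.36 on the log2 scale. In mRNA, EIF2B3 ranged from 100.7 to 117.9 CPM and EIF2B4 from 49.2 to 57.4 CPM over the 8 libraries.

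In mRNA, 0 of the 5 genes passed the FDR by edgeR in Tm vs untreated, against 11% of all transcripts, and DESeq2 called 0 as well, while 1 (EIF2AK2) had an unadjusted p under 0.05. In TE, 1 of 5 passed (PPP1R15B), against 15.9% of all transcripts. Over 8509 transcripts, the mRNA log2 ratio of the ISRIB replicates correlated with the mRNA change in Tm (Pearson's r 0.615). These are the tested transcripts with a mean of at least 100 counts over the 16 libraries. They share libraries and are not independent. The r of this ratio with the TE change was -0.441. It is no separate observation, since the TE change holds the mRNA change with the opposite sign. The Ribo-Seq log2 ratio of the ISRIB replicates, another quantity, had an r of 0.131 with the RPF change. The part of the difference between the ISRIB replicates in the changes of the 5 genes was not tested. Without ISRIB replicate a or b, the TE change of PPP1R15B in Tm was 0.67 and 0.68.

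**Figure D3:**
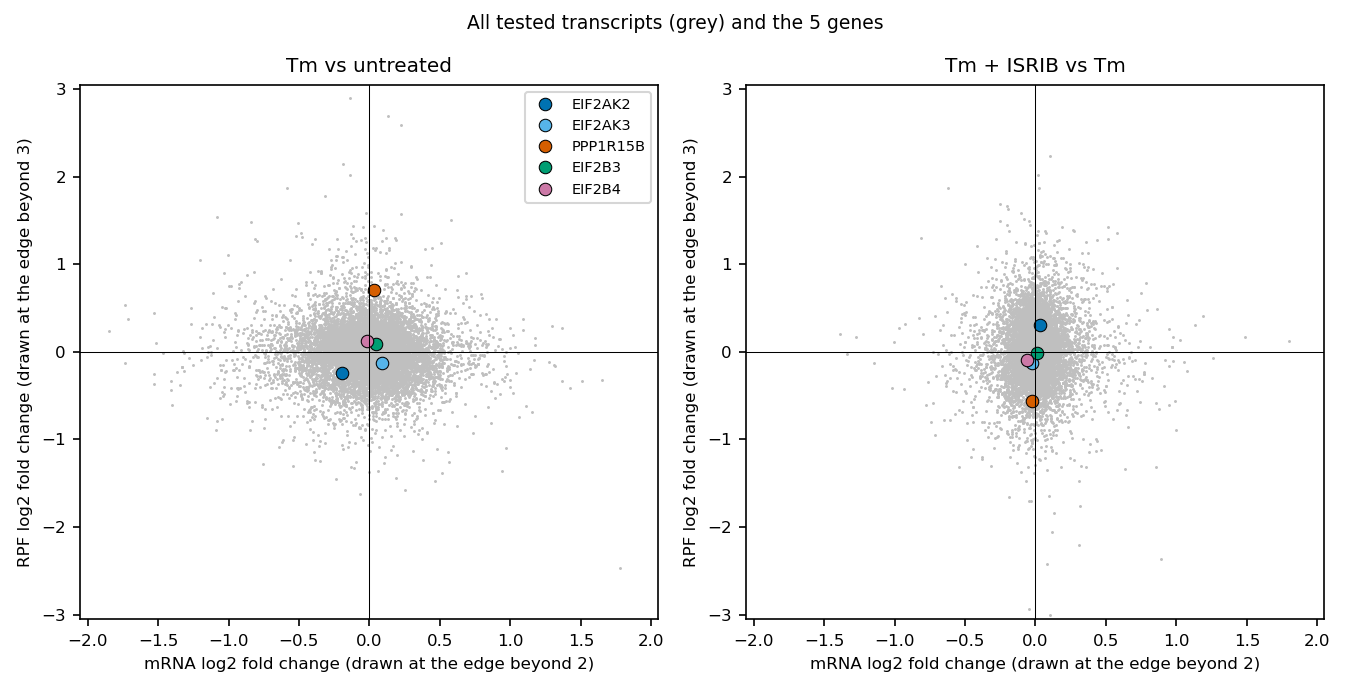
Log2 fold change of RPFs (vertical) against that of mRNA (horizontal) for all 10970 tested transcripts in grey and the 5 genes in color, in Tm vs untreated (left) and Tm + ISRIB vs Tm (right). PPP1R15B lies at 0.71 in RPFs and 0.03 in mRNA on the left and at -0.56 and -0.02 on the right, and the other 4 genes lie within 0.31 of 0 on both axes.

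The second comparison asks what adding ISRIB to Tm did. PPP1R15B lost RPFs relative to Tm and EIF2AK2 gained them, and both passed the FDR. That is 2 of 5 genes, against 17.7% of all transcripts. This comparison and Tm vs untreated share the Tm libraries, so that opposite directions in them are not independent. The changes were -0.56 ± 0.11 for PPP1R15B (SE, FDR 0.00074 by edgeR, 0.679-fold) and 0.31 ± 0.10 for EIF2AK2 (SE, FDR 0.0365, 1.24-fold).

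The change of PPP1R15B was past the FDR in all 14 alternatives and was smallest without Tm replicate a (-0.42, FDR 0.057). That of EIF2AK2 rested on single lysates, since it was lost without Tm replicate a (0.21, FDR 0.335) and without Tm + ISRIB replicate b (0.24, FDR 0.233). Its RPF levels in Tm + ISRIB were 116.2 and 126.9 CPM, both above the Tm libraries. EIF2AK3 (-0.12 ± 0.28), EIF2B3 (-0.01 ± 0.09) and EIF2B4 (-0.10 ± 0.12; log2 change ± SE) did not pass.

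mRNA levels of all 5 genes differed by at most 0.06 on the log2 scale between Tm + ISRIB and Tm, and 0 of 5 passed the FDR by edgeR, against 0% of all transcripts. DESeq2 called 0, and 0 had an unadjusted p under 0.05. In TE, PPP1R15B fell by 0.53 ± 0.13 on the log2 scale (SE, FDR 0.0289 by edgeR), the single call among the 5, against 6.11% of all transcripts. That call was lost on leaving out any of Tm a (FDR 0.309), Tm b (0.106), Tm + ISRIB a (0.148) or Tm + ISRIB b (0.186), where the log2 change lay between -0.39 and -0.65. The TE change of EIF2AK2 was 0.27 ± 0.12 (SE, FDR 0.258).

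**Figure D4:**
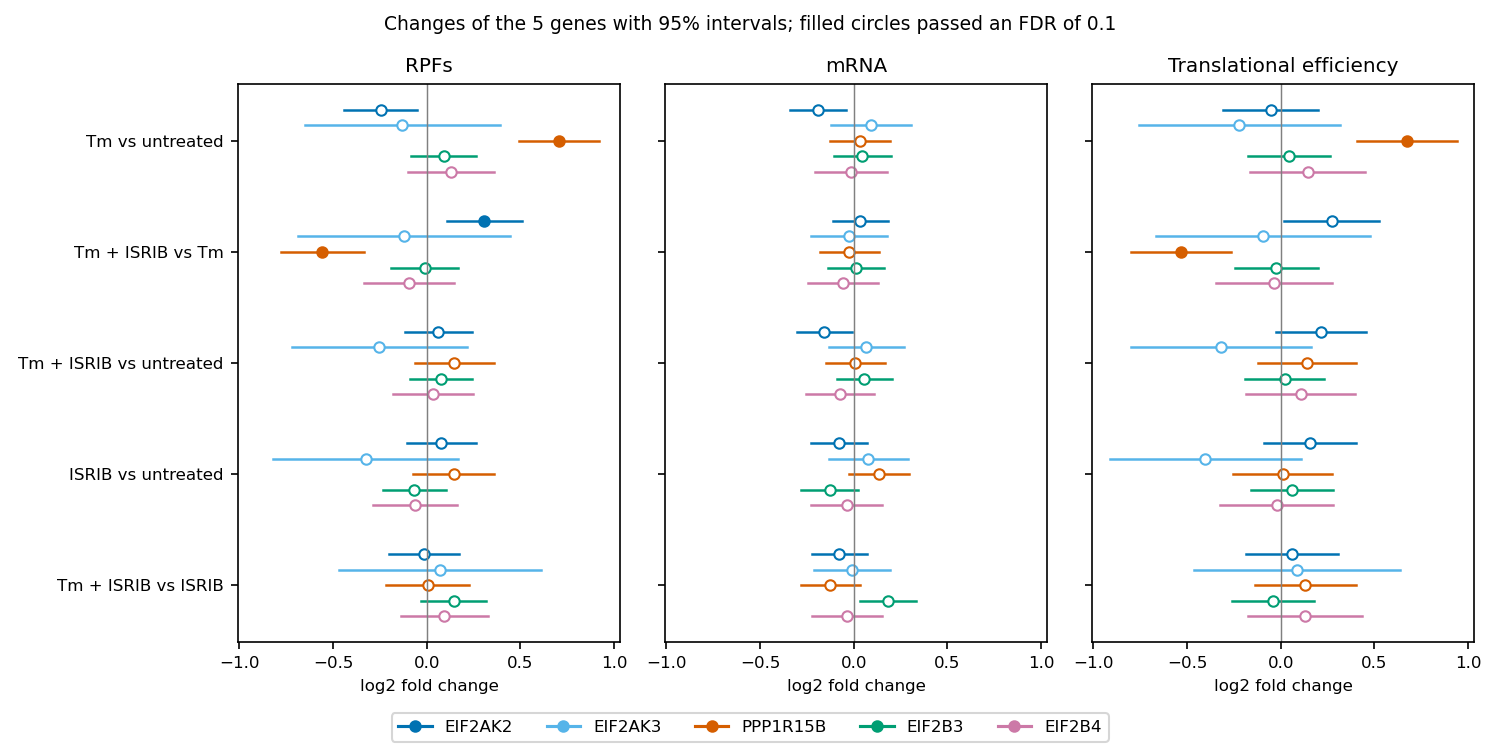
Log2 fold changes of RPFs, mRNA and TE (panels) for the 5 genes (colors) in 5 comparisons (rows), with 95% intervals as bars and filled circles for changes past an FDR of 0.1. Filled circles appear for PPP1R15B in RPFs and TE in the upper 2 rows and for EIF2AK2 in RPFs in Tm + ISRIB vs Tm, and the bars of EIF2AK3 are the widest in RPFs and TE.

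The remaining comparisons ask what was left of the Tm effect in the presence of ISRIB and what ISRIB did by itself. In Tm + ISRIB vs untreated, 0 of the 5 genes passed the FDR in RPFs by edgeR, against 2.65% of all transcripts, with 0 at an unadjusted p under 0.05 and 0 by DESeq2. PPP1R15B differed by 0.15 ± 0.10 on the log2 scale (SE; 95% interval -0.06 to 0.36). In mRNA 0 of 5 passed, against 14.2%, with 0 by DESeq2 and 1 (EIF2AK2, -0.16 ± 0.07, SE) at an unadjusted p under 0.05. In TE 0 of 5 passed, against 8.96%, with 0 under either other criterion.

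In Tm + ISRIB vs ISRIB, 0 of 5 passed in RPFs by edgeR, against 1.34% of all transcripts, with 0 at an unadjusted p under 0.05 and 0 by DESeq2. PPP1R15B RPFs were 57.2 ± 0.18 CPM in Tm + ISRIB and 57.3 ± 6.2 CPM in ISRIB (SD, n = 2), a log2 change of 0.00 ± 0.11 (SE; 95% interval -0.22 to 0.23). In mRNA 0 of 5 passed by edgeR, against 0% of all transcripts. DESeq2 called 0 of 5 in mRNA, against 86 of all transcripts, and 1 (EIF2B3, 0.18 ± 0.07, SE) had an unadjusted p under 0.05. In TE 0 passed, against 1.18%, with 0 by DESeq2 and 0 at an unadjusted p under 0.05.

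ISRIB vs untreated gave 0 of 5 in RPFs by edgeR, against 0.0182% of all transcripts, 0 in mRNA, against 1.15%, and 0 in TE, against 0.191%. DESeq2 called 0 in each, and 0 had an unadjusted p under 0.05. The RPF log2 changes ranged from -0.33 ± 0.24 for EIF2AK3 to 0.14 ± 0.11 for PPP1R15B (SE). Leaving out 1 of the untreated or ISRIB lysates moved them, from -0.56 (without ISRIB a) to -0.08 (without ISRIB b) for EIF2AK3 and from 0.03 (without ISRIB a) to 0.25 (without ISRIB b) for PPP1R15B. For EIF2B3 and EIF2B4, subunits of the complex that ISRIB binds, the RPF changes were -0.07 ± 0.08 and -0.06 ± 0.11 and the mRNA changes -0.13 ± 0.07 and -0.04 ± 0.09 (log2 change ± SE). The intervals of their RPF changes ran from -0.24 to 0.10 and from -0.29 to 0.16. That of EIF2B4 was -0.20 without ISRIB a and turned to 0.08 without ISRIB b.

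Whether the Tm effect itself differed with ISRIB was tested as an interaction over all 4 treatments. For PPP1R15B, the RPF change in Tm was smaller with ISRIB than without it by 0.70 ± 0.15 on the log2 scale (SE; interaction -0.70, 95% interval -1.01 to -0.39, FDR 0.00663 by edgeR). This was 1 of 5 genes, against 6.9% of all transcripts, and it stayed past the FDR in all 13 alternatives, between -0.57 and -0.82. For EIF2AK2 the interaction was 0.23 ± 0.13 (SE, FDR 0.365), so that a difference in its Tm effect was not detectable. In TE, 0 of 5 passed by edgeR, against 1.39%, with 0 by DESeq2 and 1 at an unadjusted p under 0.05, PPP1R15B, whose interaction was -0.54 ± 0.18 (SE, FDR 0.178). It passed only without ISRIB replicate b (-0.74, FDR 0.0456).

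With Tm, the order of the 5 genes by RPF level per kilobase counted changed at a single place. PPP1R15B (40.2 ± 4.7 CPM; SD, n = 2) and EIF2B4 (37.0 ± 3.2) overlapped, with PPP1R15B between 36.9 and 43.5 and EIF2B4 between 34.7 and 39.2, while in untreated cells PPP1R15B lay below EIF2B4. With Tm + ISRIB it was again below, at 27.5 ± 0.09 against 34.8 ± 2.1.

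Beside these genes, 20 others of the eIF2 pathway and its targets were listed, of which 18 were tested. The list was chosen with earlier results of these data known. It holds ATF4, ATF5, PPP1R15A and SLC35A4, which the study reports as translationally induced by Tm in these same libraries. The numbers of listed genes past the FDR, here and below, are therefore descriptions, and their excess over all transcripts is no separate evidence. In Tm, 6 of the 18 rose in RPFs and 1 fell, against 13.5% of all transcripts past the FDR in either direction (694 rose and 791 fell of 10970). The median log2 change of the list was 0.08, against -0.01 over all tested transcripts. The stress-induced phosphatase subunit PPP1R15A rose by 1.43 ± 0.23, beside 0.71 ± 0.10 for its relative PPP1R15B. The transcription factors ATF4 (2.69 ± 0.10) and ATF5 (2.89 ± 0.32) and the transporter-related SLC35A4 (2.01 ± 0.33), whose mRNAs carry upstream reading frames, rose most among the 18. ATF5 and SLC35A4 rest on few RPF counts, with 12 and 15 for ATF5 and 14 and 26 for SLC35A4 in the untreated libraries (a and b). The counts of PPP1R15A were also low, at 46 and 63 in untreated cells and 54 and 58 in Tm. Its Tm replicates stood apart, at 12.6 and 18.9 CPM. EIF4E2 (0.29 ± 0.10), a cap-binding protein, and EIF5B (0.27 ± 0.07), the factor of subunit joining, rose slightly, and EIF1B (-0.34 ± 0.13), a relative of the start codon factor eIF1, fell (log2 change ± SE for each).

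PRKRA, an activator of PKR, was at -0.19 ± 0.13 in RPFs in Tm (FDR 0.408) and rose by 0.33 ± 0.13 in Tm + ISRIB vs Tm (SE, FDR 0.0998), where it was the single rise among the 18. In that comparison, where 17.7% of all transcripts passed (1045 rose and 900 fell), 5 of the 18 fell, PPP1R15A (-1.29), ATF4 (-2.93), ATF5 (-2.21), SLC35A4 (-2.43) and EIF4E2 (-0.28), with a list median of -0.15 against 0.00 over all transcripts. In the interaction, 3 of 18 passed, PPP1R15A (-1.57 ± 0.36), ATF4 (-2.25 ± 0.16) and ATF5 (-2.68 ± 0.56; SE), all negative, against 6.9% of all transcripts (417 positive and 340 negative). The PPP1R15B values of 0.71, -0.56 and -0.70 thus have the signs of these genes and a smaller size.

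In TE in Tm, 5 of the 18 rose (ATF4 2.56, ATF5 3.04, SLC35A4 2.15, PPP1R15A 1.39 and EIF5B 0.68) and 2 fell, EIF3I (-0.54), a subunit of the initiation factor eIF3, and PRKRA (-0.47), against 15.9% of all transcripts (790 rose and 956 fell). In mRNA in Tm, EIF3I (0.42) and PPP1R8 (0.30), a nuclear regulator of protein phosphatase 1, rose and EIF5B (-0.41) fell, 3 of 18 against 11% of all transcripts (721 rose and 488 fell). In RPFs, the list median was 0.02 in Tm + ISRIB vs untreated and 0.05 in ISRIB vs untreated, where 1 of the 18 fell, ATF4 (-0.68 ± 0.12, SE, FDR 0.035), against 0.0182% of all transcripts.

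The named transcripts whose RPF pattern over the 8 Ribo-Seq libraries was most like that of PPP1R15B were KDM3A, a histone demethylase (Pearson's r 0.975), MSH6, a mismatch repair factor (0.963), and CTNNB1, β-catenin (0.962), among 1348 candidates with a mean of at least 100 RPF counts. For EIF2AK2 they were SSX2IP (0.970), NCKAP1 (0.952) and EPB41 (0.948), and for EIF2B3 they were NIPAL3 (0.973), BAZ2B (0.915) and THEM4 (0.899). For EIF2AK3 they were HADHB (0.937), PPIE (0.873) and NGLY1 (0.812), and for EIF2B4 they were KDM5B (0.845), ZFYVE20 (0.840) and PUSL1 (0.840). EIF2AK3 itself had 29 to 86 RPF counts per library, below the mean of 100 asked of its 1349 candidates, so that its pattern rests on few counts. All these r were picked as the highest among the candidates and are large by selection. The points of each r share their libraries and depth, and the r are descriptions over 8 libraries.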

How the data were processed

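RPFs and mRNA were counted in 16 HEK293T libraries, grouped by the labels of the samples. The authors deposited unnormalized counts for each UCSC transcript, with a counted length in codons, each library in a file of its own. Submitters' processing notes name CASAVA 1.8, Bowtie 1.0.0, TopHat2 2.0.10 and 2.0.7 and the build hg19, while positions and start sites here come from GENCODE v29 on GRCh38 and are not coordinates of the counts. The counted length was 19 codons below the annotated coding sequence. How reads shared by isoforms were assigned is not given in the sources used here.

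Transcripts were joined between assays by identifier without version and by equal length (19044 of 21520). Symbols come from the study's source tables. The transcript with the most mRNA-Seq counts represented each gene. Transcripts with at least 10 counts by filterByExpr in both assays were kept. edgeR 4.0.16 (R 4.3.3) fitted all 4 treatments together with TMM within each assay by glmQLFit and glmQLFTest, without a replicate block. TE is the interaction of treatment and assay. Adjustment was by Benjamini-Hochberg over 10970 transcripts within each of 6 comparisons, at an FDR of 0.1. Common biological coefficients of variation were 5.62% (RPFs) and 6.7% (mRNA). The SE is the log2 change over the square root of F, and intervals use the test's degrees of freedom. The scripts were tested on simulated data.

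The 5 genes, the pathway list and the tests were chosen with earlier results of these data known. All 5 genes and the pathway genes that passed are named. Neighbors in RPF pattern are the 3 named transcripts with the highest r of log2(CPM + 0.5). Alternatives were DESeq2 1.42.0, its size factors, total-count scaling, no filter, replicate blocks, the compared groups alone and leaving out each of 8 lysates. The replicate letters were not taken as pairs, since 2 replicates per treatment and no shared source in the labels do not establish a pairing. An exact permutation test of 2 against 2 cannot go below p = 0.33, so none is given. PCR copies cannot be told from separate fragments. Figures were drawn with matplotlib 3.10.9 in Python 3.11.15.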

Additional observations from a re-analysis of the deposited data

Results flagged for a closer look

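The effect of Tm on PPP1R15B RPFs differed between cells with and without ISRIB by a test of the difference itself, the interaction of Tm and ISRIB over the 8 Ribo-Seq libraries. The interaction was -0.701 on the log2 scale (FDR 0.00663 by edgeR), from a Tm effect of 0.71 without ISRIB and of 0.00 with it. Both Tm libraries, at 90.5 and 76.8 CPM, were above both untreated libraries, at 51.3 and 51.9 CPM, while in the presence of ISRIB the libraries with Tm (57.3 and 57.1 CPM) lay between those without it (61.7 and 53.0 CPM).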

How the results depend on the processing

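Of 1220 values of the 5 genes recomputed under alternatives, 75 had another sign than the value reported. All 75 belong to changes that had not passed the FDR, with a reported size of at most 0.222 on the log2 scale. The 6 changes that had passed kept their sign in all 85 recomputed values. With no filter on low counts, 2 genes instead of 1 passed in RPFs in Tm vs untreated, with EIF2AK2 at -0.248. Under total-count scaling, 1 gene instead of 0, EIF2AK2, passed in mRNA in Tm vs untreated and in Tm + ISRIB vs untreated, and the signs turned for PPP1R15B mRNA in those comparisons (-0.0096 and -0.0314), for EIF2AK2 TE in Tm (0.0383), for PPP1R15B TE in ISRIB vs untreated (-0.00507) and, in Tm + ISRIB vs ISRIB, for EIF2AK2 RPFs (0.0140) and EIF2B3 TE (0.0187). With no filter, EIF2AK3 mRNA turned in Tm + ISRIB vs ISRIB (0.0172). EIF2AK2 mRNA in Tm also passed with only the compared groups, again 1 instead of 0. The cause was not tested. The number of all transcripts past the FDR moved with the setting too. In RPFs in Tm vs untreated it was 1485 in the reported fit, 1520 with a replicate block by letter and 744 by DESeq2. For no filter, total-count scaling, the compared groups alone and left-out lysates, the shares over all transcripts are not given. The counts of genes under these settings, here and in the next paragraph, are therefore descriptions.

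Leaving out each lysate in turn moved the number of genes past the FDR in RPFs between 1 and 2 in Tm vs untreated and between 1 and 2 in Tm + ISRIB vs Tm. In mRNA it moved between 0 and 1 in Tm vs untreated and in Tm + ISRIB vs untreated (EIF2AK2, without either ISRIB lysate) and between 0 and 2 in Tm + ISRIB vs ISRIB (PPP1R15B and EIF2B3, without ISRIB replicate a). In TE it moved between 0 and 1 in Tm + ISRIB vs Tm and in the interaction. The RPF log2 change in Tm ran from -0.341 to -0.148 for EIF2AK2 and from -0.362 to 0.127 for EIF2AK3. In Tm + ISRIB vs Tm, RPFs ran from -0.381 to 0.109 for EIF2AK3, from -0.0642 to 0.0348 for EIF2B3 and from -0.172 to 0.00366 for EIF2B4, and TE from -0.321 to 0.116, from -0.0533 to 0.000932 and from -0.162 to 0.0759. The RPF interaction ran from -0.055 to 0.435 for EIF2AK3 and from -0.182 to 0.105 for EIF2B4. In Tm, mRNA ran from -0.0215 to 0.113 for EIF2B3 and from -0.11 to 0.0815 for EIF2B4, and TE from -0.133 to 0.0315 for EIF2AK2, from -0.412 to 0.00296 for EIF2AK3 and from -0.036 to 0.129 for EIF2B3. For PPP1R15B, RPFs in Tm + ISRIB vs ISRIB ran from -0.107 to 0.116, mRNA from -0.08 to 0.0281 in Tm + ISRIB vs Tm and from -0.0488 to 0.0594 in Tm + ISRIB vs untreated, and TE from -0.172 to 0.201 in ISRIB vs untreated and from -0.0606 to 0.305 in Tm + ISRIB vs ISRIB. A lone replicate was assumed to vary like the other treatments.

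A replicate block by letter or lysate changed 0 of 115 calls, and the RPF change of PPP1R15B in Tm was 0.695 with the block. Deviations of same-letter libraries correlated between -0.276 and 0.578. With the letters crossed, an alternative chosen after seeing the data, 1 of the 5 genes (EIF2AK2) instead of 0 passed in mRNA in Tm + ISRIB vs untreated. There, 4103 of all 10970 transcripts passed, against 1558 in the reported fit, so that this call is not particular to EIF2AK2. In ISRIB vs untreated, 0 of the 5 passed with the letters crossed, beside 3 of all transcripts, against 126 in the reported fit. Depth limits EIF2AK3 most, with 29 to 86 RPF counts per library.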

Other observations

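Among the 1781 named and tested transcripts with a matched 5′ UTR, the median RPF log2 change in Tm vs untreated was 0.00 for the 898 with at least 1 upstream ATG and also 0.00 for the 883 with none. EIF2AK3, with 5 upstream ATGs, and PPP1R15B, with 2, were at -0.13 and 0.71. The median length of these 5′ UTRs was 186 bases, and those of PPP1R15B (380), EIF2AK2 (323 in the transcript used) and EIF2AK3 (302) were longer.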
